A study of Mus musculus with 2 samples.

Results

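Calcium/calmodulin-dependent protein kinase II (CaMKII) is encoded by 4 genes in the mouse, Camk2a, Camk2b, Camk2d and Camk2g. All 4 were followed through the cells of the trigeminal ganglion (TG) by their symbols, as 4 of the 39098 gene symbols in the count tables. The TG holds the cell bodies of the sensory neurons of the face, with Schwann cells (SCs) and satellite glial cells (SGCs) around them. The study asked how these cells differ during orofacial inflammation. The right vibrissal pad of male C57BL/6 mice aged 5 to 8 weeks was injected, and the right TG was removed 7 days later. The CFA group received 20 μL of complete Freund's adjuvant, an oil emulsion that causes a lasting local inflammation, diluted 1:1 in saline. The control group received saline according to the study's methods, while its label reads untreated. There was 1 single-cell library per condition, and how many mice each library pooled is not given. A difference between conditions is therefore a difference between 1 control library and 1 CFA library, and it has no replicate check. No p-value was computed, and injection, animals and library preparation cannot be told apart.

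CaMKII is a multi-subunit enzyme that is switched on when calcium-loaded calmodulin binds it. It can then phosphorylate its own subunits and stay active after calcium has fallen. The alpha subunit (Camk2a) is best known from forebrain synapses, and the beta subunit (Camk2b) also binds actin filaments. The delta subunit (Camk2d) is widespread and is the main form in heart muscle. The gamma subunit (Camk2g) is widespread too, smooth muscle included. Subunits of different genes can assemble into the same enzyme, so the mix of the 4 genes in a cell describes which subunits are at hand.

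The 4 genes are close relatives, so it matters whether their reads can be told apart. Among 50-base windows of their coding transcripts in GENCODE M21 (build GRCm38), 0 of 5743 windows of Camk2a, 0 of 4821 of Camk2b, 0 of 8780 of Camk2d and 0 of 4172 of Camk2g occurred in another of the 4 genes. The longest run shared by a pair of these genes was 32 bases, between Camk2a and Camk2b. Camk2g shared 29 bases with Camk2a and with Camk2b, and Camk2d shared 23 bases with each other member. In the transcripts named below, the longest run that Camk2b, Camk2d and Camk2g all share was 22 bases. It lies in the coding sequence of the association domain, through which the subunits assemble. It is printed here in capitals with 25 bases on each side, 5′ to 3′ in the sense of each transcript, to show how quickly the genes diverge around it.
Camk2b: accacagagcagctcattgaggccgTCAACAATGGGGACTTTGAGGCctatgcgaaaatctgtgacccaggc
Camk2d: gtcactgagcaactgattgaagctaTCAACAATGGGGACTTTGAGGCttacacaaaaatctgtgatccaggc
Camk2g: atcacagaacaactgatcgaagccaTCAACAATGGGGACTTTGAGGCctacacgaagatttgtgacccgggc
The stretches cross an exon junction at chr11:5972708-5972865 on the minus strand (exons 18 and 19 of Camk2b-209), chr3:126834597-126838281 on the plus strand (exons 17 and 18 of Camk2d-206) and chr14:20738925-20739379 on the minus strand (exons 16 and 17 of Camk2g-203). Over the 72 bases, Camk2b and Camk2d had the same base at 59 positions, Camk2b and Camk2g at 60, and Camk2d and Camk2g at 61. The whole genes lie at chr11:5969644-6066362 (Camk2b, minus strand), chr3:126596302-126846326 (Camk2d, plus strand) and chr14:20734875-20794088 (Camk2g, minus strand). Within the introns of Camk2d the annotation holds 8 short genes that overlap none of its exons and were counted on their own.

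Expression was counted in unique molecular identifiers (UMIs), each of which marks 1 captured RNA molecule, and is given as CPM, the UMIs of a gene scaled to a total of 1000000 UMIs in its class. A UMI is counted once whatever the length of its transcript, so shares of UMIs are shares of captured molecules. Of 7298 cells in the control file and 4080 in the CFA file, 6695 and 3661 passed the filter (at least 150 genes, at most 25% mitochondrial UMIs). Of these, 798 control and 413 CFA cells were neurons with a median of 44542 and 36752 UMIs. All intervals are 95% intervals and none covers variation between animals. Those of levels, log2 ratios and shares of UMIs cover counting error alone. Those of shares of cells treat the cells of 1 library as independent draws. The libraries shared 27 cell barcodes, 5 of them in control neurons and 1 in a CFA neuron. No doublets were removed.

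Neurons were assigned to 8 classes by raw UMIs of marker genes. NP1 neurons, nonpeptidergic nociceptors, held at least 5 UMIs of Mrgprd (155 control and 61 CFA neurons). NP2 neurons, pruriceptors that the study names nonpeptidergic, held at least 5 UMIs of Mrgpra3 (45 and 12). PEP2 neurons held at least 5 UMIs each of Nppb and Sst, which encode itch peptides (13 and 10). C-fiber low-threshold mechanoreceptors (cLTMRs) held at least 3 UMIs of Tafa4 and 5 of P2ry1 (70 and 45). Cold-sensing neurons held at least 5 UMIs of Trpm8 (39 and 19). The remaining neurons were split by Calca, which encodes calcitonin gene-related peptide, and by Nefh, the heavy neurofilament of myelinated neurons. PEP1 neurons, peptidergic nociceptors, had at least 100 UMIs of Calca and fewer than 20 of Nefh (348 and 185). Nefh+ PEP neurons had at least 100 of Calca and 20 of Nefh (20 and 8). NF neurons had at least 20 of Nefh and fewer than 100 of Calca (23 and 12). Another 85 control and 61 CFA neurons passed no gate or several. NP2 neurons held Calca and Nefh as well, which together came to 4804 CPM in control and 4289 CPM in CFA neurons. Most of each sum was Calca, since Nefh, Pvalb, Scn4b and Cntnap1 together came to only 168 and 70 CPM in NP2. In PEP1 neurons Calca and Nefh together came to 11931 and 10165 CPM.

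Markers that the gates did not use followed most of the class names. Lpar3 and Prkcq were highest in NP1, Gfra1 in NP2, Il31ra and Nts in PEP2, Zfp521 and Piezo2 in cLTMRs and Tac1 and Adcyap1 in PEP1, in both libraries. Among the classes checked in this way, NF is the exception. Its marker Pvalb was at 22.8 CPM under control and 5.03 CPM under CFA, below the 213 and 192 CPM of Trpm8+ neurons, which also held more Scn4b. Its marker Cntnap1 was highest in NF, with 204 CPM under control and 274 CPM under CFA, against 196 and 185 CPM in Trpm8+ neurons. The NF class is therefore best read as neurons with Nefh and little Calca. Trpm8+ neurons held Nefh as well, at 1496.5 CPM under control and 1589 CPM under CFA, against 1108 and 1741 CPM in NF. Nefh+ PEP had no listed marker outside its gate, so its name was not checked in this way. Only PEP1 and NP1 held more than 50 neurons in both libraries.

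The mix of the Camk2 genes differed widely between neuron classes. Camk2d led in NP1 and cLTMR neurons, Camk2a in NP2 and PEP2 neurons, and Camk2g in Nefh+ PEP, NF and Trpm8+ neurons, in both libraries alike. PEP1 neurons held a more even mix, with Camk2g first in the control library and Camk2d first in the CFA library. Camk2b led in none of the 8 classes.

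**Figure D1:**
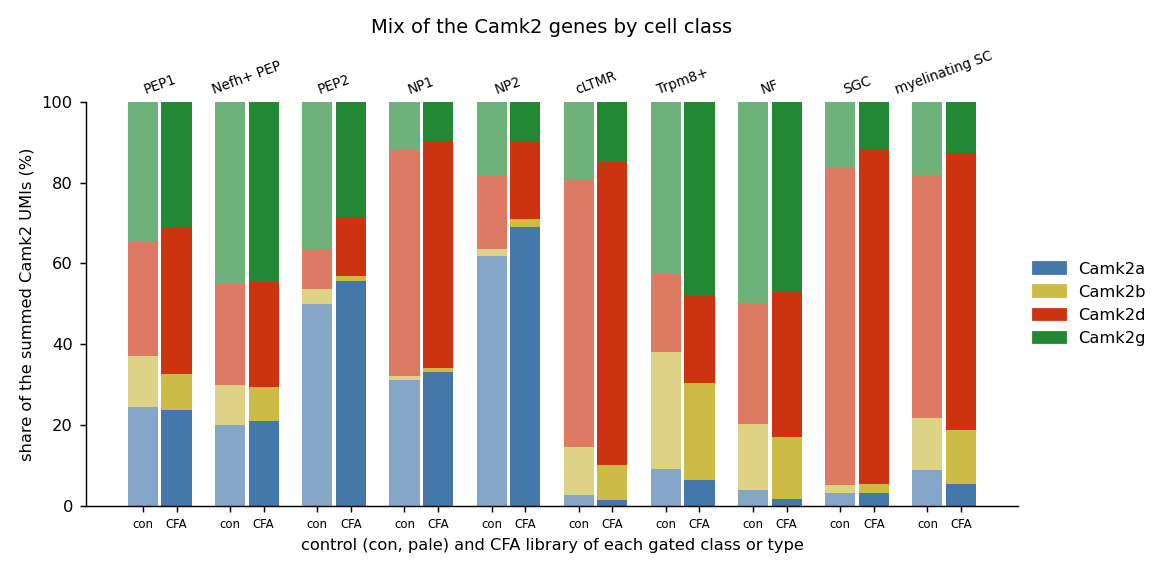
Share of each Camk2 gene (percent, vertical axis) in the summed Camk2 UMIs of 8 gated neuron classes, SGCs and myelinating SCs, with the control library (pale) beside the CFA library. Camk2d takes 66.1% and 75.1% in cLTMRs, while Camk2a takes 61.9% and 68.9% in NP2 neurons.

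In NP1 neurons Camk2d made up 55.8% of the Camk2 UMIs in the control library (95% interval 54.7 to 56.8%) and 56.3% in the CFA library (54.7 to 57.9%). Camk2a followed with 31.2% and 33.2%, and Camk2b was nearly missing with 1.10% and 0.839%. The cLTMRs had an even stronger lead of Camk2d, with 66.1% (63.7 to 68.5%) and 75.1% (72.2 to 77.8%). Unlike NP1 neurons, cLTMRs held little Camk2a, with 2.79% of their Camk2 UMIs under control and 1.37% under CFA. Camk2g came second in cLTMRs, with 19.2% and 14.8%, while Camk2a came second in NP1 neurons.

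Camk2a made up 61.9% (60.1 to 63.6%) of the Camk2 UMIs of control NP2 neurons and 68.9% (65.5 to 72.2%) of those of CFA NP2 neurons. In PEP2 neurons it gave 323 of 646 Camk2 UMIs (46.1 to 53.9%) and 416 of 749 (51.9 to 59.1%). Camk2g came second in PEP2, with 36.4% and 28.6%. In NP2, Camk2g took 18.4% and 9.73%, and Camk2d 18.1% and 19.2%.

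Camk2g made up 45.1% (42.4 to 47.9%) and 44.7% (40.6 to 48.8%) of the Camk2 UMIs in Nefh+ PEP neurons, and 49.7% (45.8 to 53.6%) and 47.0% (40.6 to 53.4%) in NF neurons. Trpm8+ neurons had 42.7% (39.2 to 46.3%) and 48.1% (42.4 to 53.8%). Trpm8+ neurons were also the class in which Camk2b came second, with 29.1% (25.9 to 32.4%) in control and 24.0% (19.4 to 29.2%) in CFA neurons. Dividing UMIs by the length of each gene's longest coding transcript, as a per-length scale, kept the leading gene in 15 of the 16 pairs of class and library. The exception was PEP1 in the CFA library, where Camk2g then led with 38.1% over 30.1% for Camk2d.

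The leading gene of a class also led in more of its neurons than any other member, in both libraries. In NF, Camk2g led in 15 of 23 control and in 6 of 12 CFA neurons. In NP1, 140 of 155 control neurons (90.3%) and 51 of 61 CFA neurons (83.6%) had more UMIs of Camk2d than of any other member. In NP2, Camk2a led in 43 of 45 control neurons and in 12 of 12 CFA neurons. In PEP2 it led in 10 of 13 and in 10 of 10 neurons. All 4 genes were found together in 317 of 348 control PEP1 neurons (91.1%) and in 166 of 185 CFA PEP1 neurons (89.7%). In NP1 this was so in 54 of 155 and 19 of 61 neurons, since most NP1 neurons had no UMI of Camk2b.

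The summed level of the 4 genes also differed between classes. PEP2 neurons held the most, with 1098 CPM (1015 to 1186) in control against 1479 CPM (1375 to 1589) in CFA neurons. The cLTMRs held 374 CPM (355 to 393) and 410 CPM (384 to 437), and Trpm8+ neurons 374 CPM (348 to 401) and 361 CPM (322 to 404). These low levels of both classes overlapped each other within each library. The other 5 classes lay between 622 and 930 CPM in the control library and between 621 and 1052 CPM in the CFA library.

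Camk2a varied most between classes. It was highest in PEP2 with 549 CPM (491 to 612) in the control library, followed by NP2 with 529 CPM (505 to 553), and these neighbours overlapped. NP1 (248 CPM), PEP1 (216 CPM) and Nefh+ PEP (186 CPM) formed a middle group in which PEP1 and Nefh+ PEP overlapped. Trpm8+ (33.9 CPM), NF (24.7 CPM) and cLTMR (10.4 CPM) were far lower. The highest class exceeded the lowest 52.7-fold in the control library. The order of the 8 classes was the same in the CFA library, from 822 CPM in PEP2 (745 to 905) and 681 CPM in NP2 (623 to 742), which did not overlap there, down to 5.63 CPM in cLTMRs, where 13 UMIs were found in 45 neurons.

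Camk2d was highest in NP1 in both libraries, with 443 CPM (431 to 456) in control against 563 CPM (539 to 587) in CFA neurons. PEP1 (248 CPM), cLTMR (247 CPM) and Nefh+ PEP (232 CPM) overlapped in the control library. NF (186 CPM) overlapped both Nefh+ PEP and NP2 (154 CPM), and PEP2 (110 CPM) and Trpm8+ (71.6 CPM) came last. In the CFA library PEP1 (384 CPM) stood above cLTMR (308 CPM) without overlap. Trpm8+ neurons were again lowest, with 77.4 CPM.

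Camk2g was highest in Nefh+ PEP (420 CPM, 386 to 455) and PEP2 (399 CPM, 350 to 454) neurons of the control library, which overlapped. NF (309 CPM) and PEP1 (306 CPM) neurons followed and overlapped as well. The lowest levels were those of NP1 (95.2 CPM) and cLTMR (71.9 CPM). In the CFA library the highest and the lowest class were the same, with 436 CPM (385 to 493) in Nefh+ PEP and 60.6 CPM (51.0 to 71.6) in cLTMRs. Camk2b was the lowest member over all neurons, with 62.6 CPM in control and 58.0 CPM in CFA neurons. In the control library PEP1 (109 CPM), Trpm8+ (109 CPM), NF (83.3 to 123 CPM) and Nefh+ PEP (92.1 CPM) overlapped their neighbours in order. NP1 was lowest with 8.73 CPM (7.04 to 10.7) in control against 8.39 CPM (5.74 to 11.8) in CFA neurons.

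**Figure D2:**
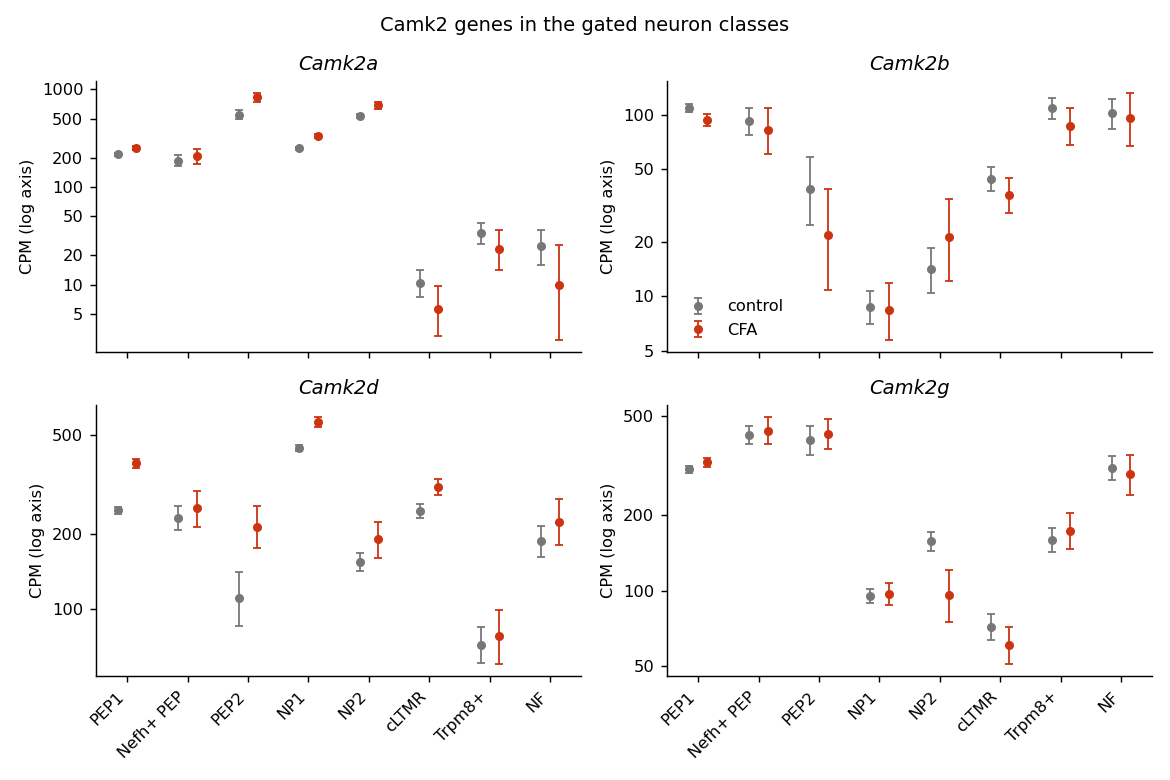
Level of each Camk2 gene (CPM, log axis) in the 8 gated neuron classes of the control (grey) and CFA (red) libraries; points are class totals and bars their 95% Poisson intervals, which cover counting error alone. Camk2a spans from 10.4 CPM in cLTMRs to 549 CPM in PEP2 neurons of the control library.

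Outside the neurons, Camk2d was the leading member in SGCs, both kinds of SCs, macrophages, fibroblasts and endothelial cells of both libraries. Neurons held 99.0% of the Camk2a UMIs of neurons and gated types in the control library, 97.0% of the Camk2g UMIs and 92.9% of the Camk2d UMIs. Neurons also held most UMIs of all genes there, with 38586572 against 6399131 in the gated types, so high shares are partly a matter of depth. SGCs, the glia that wrap neuronal cell bodies, held 232 CPM of Camk2d (210 to 256) in 836 control cells and 321 CPM (280 to 365) in 361 CFA cells. This was within the range of the neuron classes. Camk2d took 78.3% of the Camk2 UMIs of control SGCs and 82.9% of those of CFA SGCs, and Camk2a stood at 9.86 and 12.7 CPM. Myelinating SCs held 104 CPM of Camk2d (92.3 to 117) in 2268 control cells and 144 CPM (125 to 166) in 1374 CFA cells. Non-myelinating SCs held 211 CPM (134 to 316) in 114 control cells, from 23 UMIs.

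Free RNA of lysed cells can add UMIs to other cells, so the ratio of Camk2d to Camk2a and the level in erythroid cells are given beside these values. Neurons held 1.27 UMIs of Camk2d for each UMI of Camk2a under control and 1.48 under CFA. SGCs held 23.5 (400 against 17 UMIs) and 25.3 (228 against 9 UMIs), and myelinating SCs 6.69 (281 against 42 UMIs) and 12.9 (193 against 15 UMIs). The neuron classes themselves ran from 0.201 in PEP2 to 23.7 in cLTMRs of the control library, which is close to the value of SGCs. The part of free RNA in the glial values was not tested. CFA erythroid cells held 6 UMIs of Camk2d against 5 of Camk2a. Erythroid cells, which should lack these genes, held 1 UMI of Camk2d in 38 control cells and 6 in 87 CFA cells, or 18.0 CPM (0.455 to 100) and 48.4 CPM (17.7 to 105). The interval of SGCs lay above that of erythroid cells in both libraries, and that of myelinating SCs in the CFA library alone. Thinned to 500 UMIs, 8.88 to 13.2% of 834 control SGCs and 11.5 to 19.1% of 360 CFA SGCs (95% intervals) had a UMI of Camk2d, against 0 of 36 and 0 of 87 erythroid cells, with upper limits of 9.74% and 4.15%. The control limit overlapped the interval of control SGCs. Before thinning the shares were 32.9% and 40.4% of SGCs, at median depths of 1894 and 1771 UMIs, and 2.63% and 6.90% of erythroid cells, at 1112 and 1177 UMIs.

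Macrophages held 72.2 to 147 CPM of Camk2d in the control library and 66.9 to 150 CPM in the CFA library (95% intervals). Fibroblasts (FBs) held 42.2 to 74.5 and 45.3 to 90.4 CPM, and endothelial cells (ECs) 28.1 to 77.2 and 35.6 to 105 CPM. In these 3 types the intervals overlapped those of erythroid cells. Mural cells, the contractile cells of small vessels, were the non-neuronal type with the most Camk2g. In 52 control cells they held 304 CPM of it (195 to 453), from 24 UMIs in 12 cells with at most 6 UMIs in a cell. The 18 CFA mural cells held only 3 UMIs of Camk2g. Oligodendrocyte-like cells (OLCs) had at most 4 UMIs of any member in a library. Lymphocytes, with 29 and 13 cells, had at most 3.

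**Figure D3:**
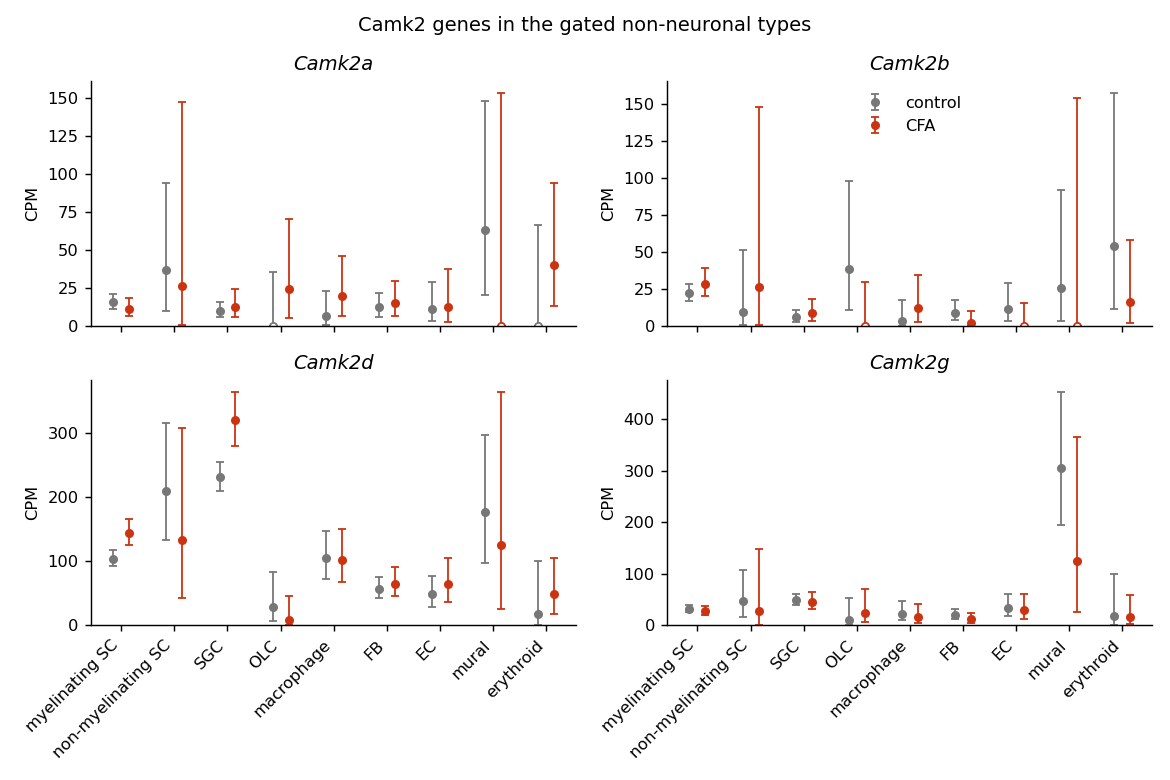
Level of each Camk2 gene (CPM) in 9 gated non-neuronal types of the control (grey) and CFA (red) libraries, with 95% Poisson intervals; open points mark 0 UMIs. Camk2d in SGCs, at 232 and 321 CPM, stands above the erythroid cells, at 18.0 and 48.4 CPM.

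Camk2d was higher in the CFA library than in the control library in all 8 neuron classes by point estimate. For this count of classes, and for those of other genes below, the share of all genes is not given here. All 8 classes come from the same control library and the same CFA library. The log2 ratio was above 0.5 in PEP2 and PEP1 neurons and between 0.11 and 0.34 in the other 6 classes. Over all neurons the level was 282 CPM (277 to 287) in control against 373 CPM (364 to 383) in CFA neurons. The log2 ratio, taken as CFA over control throughout, was 0.40 (0.36 to 0.45). It was 0.44 with the classes at the same weight in both libraries. A log2 ratio past 0.2, above or below 0, was counted as higher or lower. Of the 4 members, 1 (Camk2d) was higher and 0 were lower past this fold over all neurons, while of all 14537 genes with at least 50 UMIs 23% were higher and 21.5% lower.

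In PEP1 neurons Camk2d stood at 248 CPM (240 to 257) in control against 384 CPM (369 to 399) in CFA neurons, from 3398 and 2513 UMIs. The log2 ratio was 0.63 (0.55 to 0.70). Of the members, 2 were higher (Camk2a and Camk2d) and 1 lower (Camk2b) past 0.2 in PEP1, against 22.5% and 24.5% of all genes. Past 0.5 only Camk2d was higher, as were 4.93% of all genes. The interval of PEP1 did not overlap those of NP1, cLTMR, Nefh+ PEP and Trpm8+ neurons. The difference between classes was not tested, and the share of all genes with such intervals is not given here.

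PEP2 neurons held 110 CPM of Camk2d (85.2 to 141) under control and 213 CPM (175 to 258) under CFA, from 65 and 108 UMIs in 13 and 10 neurons. The log2 ratio was 0.95 (0.49 to 1.42). Of the 3 members with at least 50 UMIs in PEP2, 2 (Camk2a and Camk2d) were higher and 0 lower past 0.2, against 29.9% and 29.4% of all genes. Both were also past 0.5, as were 9.97% of all genes. Camk2b had too few UMIs to be counted (23 and 11), with a log2 ratio of -0.85 (-2.03 to 0.25). The interval of Camk2d overlapped that of PEP1.

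NP1 neurons held 443 and 563 CPM, a log2 ratio of 0.34 (0.27 to 0.42). There, 2 members (Camk2a and Camk2d) were higher and 0 lower past 0.2, beside 20.5% and 25.1% of all genes. The cLTMRs held 247 CPM (232 to 263) and 308 CPM (285 to 331), a log2 ratio of 0.32 (0.17 to 0.46). In cLTMRs Camk2d was the 1 member higher past 0.2 and the other 3 were lower with intervals that held 0, beside 22.4% and 26.4% of all genes. With every neuron thinned to a random 5000 UMIs the Camk2d ratio of cLTMRs was 0.12, from far fewer UMIs and without an interval. NP2 neurons held 154 CPM (142 to 168) and 190 CPM (160 to 223), a log2 ratio of 0.30 (0.02 to 0.56). In NP2, 3 members (Camk2a, Camk2b and Camk2d) were higher and 1 (Camk2g) lower past 0.2, beside 23.5% and 33.6% of all genes. These 3 classes had intervals above 0 that overlapped one another.

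In the other 3 classes the interval of Camk2d held 0. The log2 ratio was 0.12 (-0.16 to 0.41) in Nefh+ PEP, 0.11 (-0.33 to 0.54) in Trpm8+ and 0.27 (-0.11 to 0.63) in NF neurons. These classes hold 8 to 19 neurons in the CFA library. With neurons thinned to 5000 UMIs the ratio was 0.53 in Nefh+ PEP and 1.11 in NF neurons, and with doubled gate thresholds it was -0.30 in NF neurons. Thinning keeps a random 5000 UMIs of each neuron, so these thinned ratios rest on far fewer Camk2d UMIs and have no interval. In Nefh+ PEP 0 members were past 0.2 in either direction (29.7% and 31.2% of all genes). In Trpm8+ neurons 0 were higher and 2 lower (21.8% and 31.9%). Of the 3 members with at least 50 UMIs in NF neurons, 1 was higher and 0 lower (29.9% and 35.3%). Camk2a had too few UMIs in NF neurons to be counted (26 and 4), with a log2 ratio of -1.30 (-3.28 to 0.23).

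**Figure D4:**
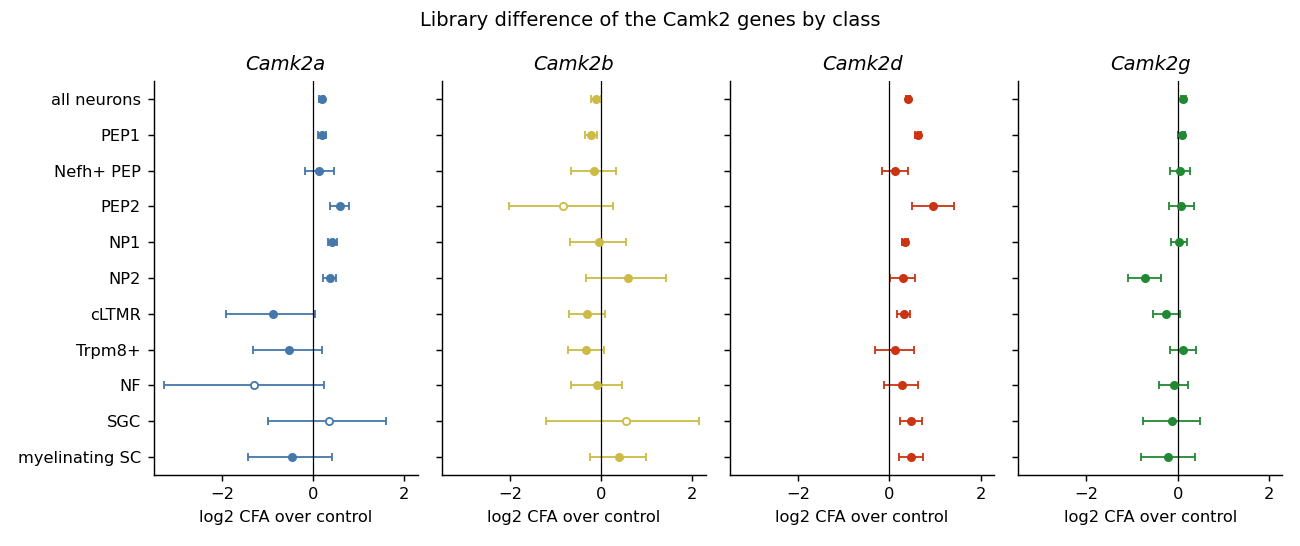
Log2 ratio of CFA over control (horizontal axis) of each Camk2 gene over all neurons, in 8 neuron classes, SGCs and myelinating SCs, with 95% intervals for counting error alone; open points have fewer than 50 UMIs. Camk2d lies right of 0 in all rows, while Camk2g in NP2 neurons lies left of 0 at -0.71.

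Single neurons of a class varied far more than the counting intervals of the class totals. The quartiles of control PEP1 neurons were 123 and 310 CPM of Camk2d around a median of 198 CPM. In CFA PEP1 neurons the quartiles were 213 and 524 CPM around a median of 346 CPM. Of the 185 CFA neurons, 143 (77.3%) lay above the control median and 109 (58.9%) above its upper quartile. The distributions overlapped, and all 3 quartiles were higher in the CFA library.

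NP1 neurons had a median of 413 CPM (quartiles 353 and 509) in control against 557 CPM (459 and 668) in CFA neurons. Of the 61 CFA neurons, 47 (77.0%) lay above the control median. In PEP2, 9 of 10 CFA neurons lay above the control median of 116 CPM. This was not so in every class. The median NF neuron held 163 CPM under control and 146 CPM under CFA, and the median Nefh+ PEP neuron 206 and 171 CPM, so the median was lower in the CFA library where the class total was higher.

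**Figure D5:**
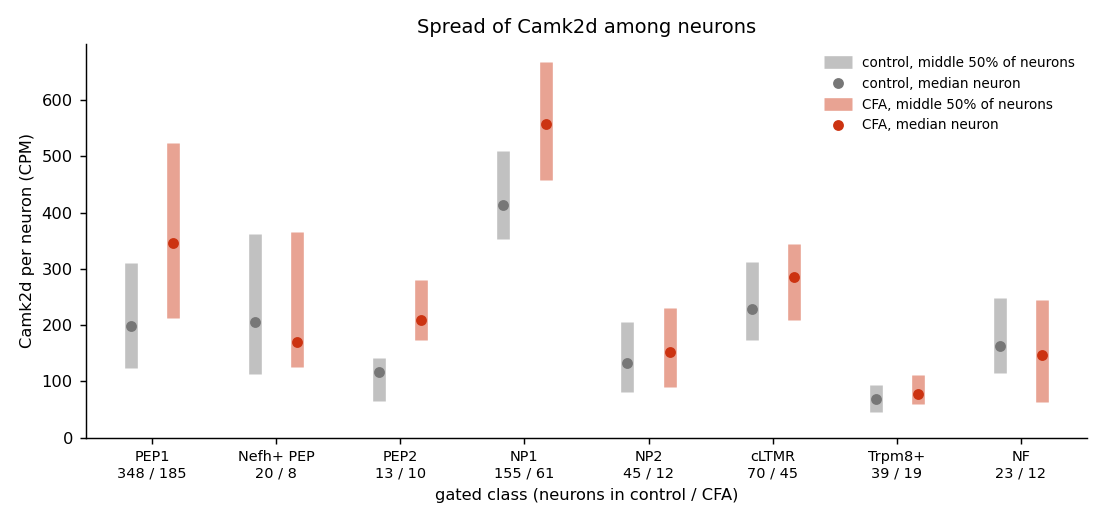
Camk2d per neuron (CPM) in the 8 gated classes; bars span the quartiles of the neurons of the control (grey) and CFA (red) library and dots the median neuron. The median is higher in the CFA library in 6 classes and lower in Nefh+ PEP and NF neurons.

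The mix of PEP1 neurons differed between the libraries. Camk2d took 28.2% (27.4 to 29.0%) of their Camk2 UMIs under control and 36.5% (35.3 to 37.6%) under CFA. Camk2g took 34.8% (33.9 to 35.6%) and 31.0% (29.9 to 32.1%), and Camk2b 12.4% and 8.88%. Camk2g led in 151 of 348 control neurons (43.4%) and in 41 of 185 CFA neurons (22.2%). Camk2d led in 88 control neurons (25.3%) and in 86 CFA neurons (46.5%). Neurons of a library are not replicates of its condition. Camk2g itself stood at 306 and 326 CPM, so its smaller share in the CFA library did not come with a lower level.

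Camk2a was higher in the CFA library in the classes that hold much of it. The log2 ratio was 0.58 (0.37 to 0.80) in PEP2, 0.42 (0.32 to 0.52) in NP1, 0.36 (0.22 to 0.51) in NP2 and 0.20 (0.11 to 0.29) in PEP1. In Nefh+ PEP neurons it was 0.14 (-0.18 to 0.46). In cLTMR, Trpm8+ and NF neurons, where Camk2a is low, the point estimates were below 0 with intervals that held 0. For example, cLTMRs held 42 UMIs under control and 13 under CFA (log2 ratio -0.89, -1.91 to 0.04).

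Camk2g was close to equal in most classes. Its log2 ratio was 0.09 (0.02 to 0.17) in PEP1 and 0.03 (-0.15 to 0.20) in NP1 neurons. NP2 neurons stood apart, with 157 CPM (145 to 171) in control against 96.1 CPM (75.3 to 121) in CFA neurons. That is a log2 ratio of -0.71 (-1.08 to -0.36), from 561 UMIs in 45 neurons and 73 UMIs in 12 neurons. Camk2b stood at 109 CPM (104 to 115) in control PEP1 neurons and was lower in CFA PEP1 neurons at 93.4 CPM (86.2 to 101). The log2 ratio was -0.23 (-0.36 to -0.09). Its ratio was below 0 in 7 of the 8 classes and its interval excluded 0 in PEP1 alone.

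Glia differed between the libraries as well. The log2 ratio of Camk2d was 0.47 (0.22 to 0.70) in SGCs and 0.47 (0.20 to 0.74) in myelinating SCs. In SGCs 32.8% of all genes with at least 50 UMIs were higher past 0.2 and 26.9% lower, and in myelinating SCs 32.4% and 28.4%. Of the members with that depth, 1 of 2 in SGCs and 2 of 4 in myelinating SCs were higher, the latter with 2 lower. Macrophages had a log2 ratio of -0.03 (-0.83 to 0.75). The Camk2d interval, for counting error alone, thus lay above 0 in both major glial types and in 5 of the 8 neuron classes. The share of all genes with such an interval is not given here.

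Since glia hold Camk2d, their RNA in neurons was measured by marker lists of 4 genes each. The SGC list (Fabp7, Kcnj10, Kcnj3, Ednrb) summed to between 19.1 and 61.2 CPM in the neuron classes of the control library and between 8.21 and 123 CPM in those of the CFA library, with 0 to 1 and 0 to 3 of the markers at 0. These sums were 0.166 to 0.532% and 0.0966 to 1.45% of the level in SGCs. The highest was that of CFA NF neurons, against 28.5 CPM in control NF neurons. At these shares SGC RNA would carry at most 1.23 CPM of Camk2d into a control class and 4.65 CPM into a CFA class. The myelinating SC list (Prx, Ncmap, Cldn19, Pmp2) summed to at most 24.7 CPM in the control classes and 11.9 CPM in the CFA classes, with 1 and 1 to 3 markers at 0. At their shares of the level in myelinating SCs these would carry at most 0.458 and 0.337 CPM of Camk2d. In PEP1 neurons both lists were lower in the CFA library, with 29.5 and 23.0 CPM for SGCs and 16.4 and 8.70 CPM for myelinating SCs. Pmp2 was at 0 CPM in myelinating SCs and Kcnj3 at 0 CPM in SGCs. Kcnj3 had UMIs in PEP1, NP1, NP2 and cLTMR neurons of both libraries, in control Trpm8+ neurons and in CFA NF neurons. The SGC sums there therefore include RNA that SGCs did not hold. Whether glial RNA enters neurons in proportion to these lists was not tested, nor was its part in the Camk2d ratios. The mitochondrial share of PEP1 neurons was 2.28% and 2.39%.

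Genes that act on CaMKII were read from lists. Camk2n1, which encodes an inhibitor that binds the active kinase, was at 202 CPM in the control neurons and 313 CPM in the CFA neurons, a log2 ratio of 0.63 (0.58 to 0.69). Camk2n2, the other inhibitor, was at 140 and 136 CPM, a log2 ratio of -0.04 (-0.11 to 0.03). In PEP1, Camk2n1 stood at 264 and 426 CPM (log2 ratio 0.69, 0.62 to 0.77), beside the Camk2d ratio of 0.63 in the same neurons.

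Camk2n1 differed strongly between classes. It was highest in cLTMRs, with 520 CPM in control and 651 CPM in CFA neurons, and lowest in NP1 neurons, with 14.6 and 26.7 CPM. NP1 neurons thus held the most Camk2d and the least Camk2n1 of the 8 classes. The reverse did not hold for cLTMRs, which had the most Camk2n1 and 247 and 308 CPM of Camk2d, not the least. The log2 ratio of Camk2n1 was above 0 in 5 classes and below 0 in 3, and its interval lay above 0 in 4 classes. Nefh+ PEP neurons went the other way, with 255 and 116 CPM (log2 ratio -1.13, -1.53 to -0.76), from only 20 control and 8 CFA neurons. Markers differed between these neurons too, with Calca at 10330 and 7429 CPM, Tac1 at 5923 and 2877 CPM and Nefh at 482 and 653 CPM. Their part in the result was not tested. In SGCs Camk2n1 stood at 262 and 492 CPM (log2 ratio 0.91, 0.71 to 1.12).

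Calm2 and Calm3 encode calmodulin, the activator of the kinase. Calm3 was at 577 and 665 CPM (log2 ratio 0.20, 0.17 to 0.24) and was just past 0.2. Calm2 was at 1994 and 1946 CPM (-0.04, -0.05 to -0.02) and was within the fold. Of the calmodulin buffers, Pcp4l1 was higher (log2 ratio 0.41) and Pcp4 lower (-0.21), Gap43 was within the fold (0.14), and Nrgn had too few UMIs to be counted.

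In the list of other calmodulin kinases and related genes, 2 of 10 genes were higher and 1 lower past the fold over all neurons, beside 23% and 21.5% of all genes. Camk1d was at 19.8 and 26.3 CPM (log2 ratio 0.41, 0.24 to 0.58). Camkv was at 1.45 and 3.27 CPM (1.17, 0.61 to 1.73), from only 56 and 55 UMIs. Camk1g was lower, with 43.1 and 34.9 CPM (-0.30, -0.44 to -0.17). Camk4, a kinase of the nucleus, was low with 7.28 and 8.32 CPM.

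Phosphatases that reverse the autophosphorylation of CaMKII gave 1 higher and 1 lower gene of 5, which is close to the 23% and 21.5% of all genes. Ppm1f, a phosphatase named for its action on this kinase, was at 24.7 CPM under control and 17.7 CPM under CFA (log2 ratio -0.48, -0.67 to -0.29). Its ratio was below 0 in 6 of the 8 classes, with the interval below 0 in 3. Ppp1cc was higher (0.22, 0.08 to 0.35). Of the calcineurin genes, which encode the calcium-activated phosphatase and its regulators, Ppp3ca was at 1248 and 1530 CPM (0.29, 0.27 to 0.32) and the other 5 of 6 were within the fold.

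Anchors and substrates of the kinase gave 2 higher and 2 lower genes of the 10 of 12 with at least 50 UMIs, again beside 23% and 21.5% of all genes. Syn2, a synapsin of synaptic vesicles, was at 214 and 268 CPM (log2 ratio 0.33), and Gria1, an AMPA receptor subunit, at 34.1 and 45.8 CPM (0.43). Dlg4, the scaffold PSD-95, was at 81.1 and 69.5 CPM (-0.22), and Kcnd2 at 1.35 and 1.07 CPM (-0.33, -1.19 to 0.46). Grin1 (0.02) and Syn1 (-0.07) were within the fold. In all, 38 of the 41 related genes had at least 50 UMIs, of which 9 were higher and 5 lower past the fold, with a median log2 ratio of 0.01. Over all genes these shares were 23% and 21.5%, with a median of 0.00.

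The genes whose levels over the 8 classes and both libraries were most like each member were found by Pearson's r of log2(CPM + 1) over 16 points among 9363 genes. For Camk2a these were F2rl2 (r = 0.98), Pdlim5 (0.96) and Dnajc12 (0.95). For Camk2b they were Prkg2 (0.97), Prkcb (0.96) and A4galt (0.95). Camk2d was most like Dlgap1 (0.93), Rragd (0.92) and Sfxn1 (0.90), and Camk2g most like Ttc9b (0.94), Peg3 (0.92) and Nfkbia (0.92). Between the members r lay between -0.46 (Camk2a and Camk2b) and 0.52 (Camk2b and Camk2g). The points share libraries and depth, and classes of 8 to 348 neurons counted alike, so these values describe likeness over classes only.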

How the data were processed

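The authors deposited whole-number UMI counts per gene and cell for 1 BD Rhapsody library per condition, without normalization, and per the labels the build was GRCm38 with fastp among the tools. The aligner, its settings, gene annotation and versions are not given in the sources used here. Depth was 48916096 UMIs in the control and 22096268 UMIs in the CFA file. Counts were summed per gated class and library with Python 3.11.15, numpy 2.4.6, scipy 1.17.1 and pandas 2.3.3, and figures drawn with matplotlib 3.10.9. All intervals are at 95%. Those of CPM are exact Poisson intervals, those of log2 ratios are exact binomial intervals given the summed UMIs, and shares follow Clopper and Pearson. PCR copies were removed by UMIs, so the intervals of CPM, log2 ratios and shares of UMIs cover counting error alone. With 1 library per condition no test was made. The interval procedure of the log2 ratios was run on simulated class sums with Poisson counting error alone. Those hold no spread between cells or libraries, so the check does not cover it.

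Neurons had at least 5000 UMIs and 20 UMIs of pan-neuronal markers (Tubb3, Snap25, Stmn2, Stmn3, Uchl1, Syt1). Other cells had fewer than 3 of these, and a type took a cell with at least 3 UMIs of its markers and 2/3 of all type marker UMIs. As first written, a neuron that passed more than 1 class gate was left out. NP2 and Trpm8+ neurons also held Calca or Nefh, so the Calca and Nefh gates were applied only to neurons below the other gates. This was decided on the marker UMIs of these libraries. No doublet caller was run. Named genes are the 4 members, the related genes with at least 50 UMIs in neurons and the 3 genes most like each member (at least 500 UMIs). A few genes of the related and glial lists are not reported here, and the sums and counts given leave them out, while the type gates and the 1% glial limit used the full lists. The members, gene lists and markers were chosen with earlier results of these data known. Positions and transcripts are from GENCODE M21. Alternatives were other cell filters, other class gates, totals without mitochondrial genes, median centring, equal weight per cell, thinning to 5000 UMIs, and leaving out neurons with over 1% glial marker UMIs or shared barcodes.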

Additional observations from a re-analysis of the deposited data

Results flagged for a closer look

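Camk2g in NP2 neurons was picked out because it lay below 0 there and above 0 in another class, each with an interval that excluded 0. The log2 ratio of CFA over control was -0.71 (-1.08 to -0.36) in NP2 neurons and 0.0932 (0.02 to 0.17) in PEP1 neurons. The quartiles of Camk2g were 118 and 205 CPM over the 45 control NP2 neurons and 62.2 and 114 CPM over the 12 CFA NP2 neurons. With neurons that passed more than 1 class gate left out, only 3 control and 5 CFA NP2 neurons remained. The Camk2g ratio was not recomputed for them. The difference between the classes was not tested. In the same NP2 neurons Gfra1 was at 401 and 287 CPM, and the median depth was 78446 and 60178 UMIs. Their part in the result was not tested.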

How the results depend on the processing

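The log2 ratio of Camk2d stayed above 0 under every alternative run for all neurons, PEP1, PEP2, NP1, NP2, cLTMR and Trpm8+ neurons. It ranged from 0.39 to 0.45 over all neurons, from 0.61 to 0.74 in PEP1, from 0.95 to 1.06 in PEP2, from 0.32 to 0.40 in NP1 and from 0.26 to 0.50 in NP2. It left the 95% interval of the reported value in 8 of 109 recomputed values. Thinning to 5000 UMIs gave 0.45 over all neurons, 0.74 in PEP1, 0.53 in Nefh+ PEP, 0.12 in cLTMR and 1.11 in NF neurons. The thinned ratios rest on fewer UMIs, drawn at random, and have no interval. Doubled gate thresholds gave -0.30 in NF neurons, and halved thresholds gave 0.57 in Nefh+ PEP neurons. Leaving out neurons that passed more than 1 gate, the rule as first written, gave 0.99 in Trpm8+ neurons, from only 3 control and 2 CFA neurons. In Nefh+ PEP and NF neurons the ratio was above 0 in 10 of 12 alternatives each. The cause was not tested. Camk2d in control SGCs was at 260 CPM with at least 300 genes and at most 10% mitochondrial UMIs, and the other 11 of 12 recomputed glial levels lay inside the reported interval. The leading gene was the same in all 16 pairs of class and library with the stricter cell filter, doubled gates and equal weight per cell. It was also the same with the 1% glial limit and with neurons of more than 1 gate left out. The latter left only 3 control and 5 CFA neurons in NP2, so the NP2 values of that setting, also in the ratio range above, rest on few neurons. With the per-length scale (15 pairs) these are the alternatives run for the mix. The shares themselves were less stable. Over these alternatives 88 of 432 recomputed shares left the 95% interval of the reported value. The 1% glial limit removed no neuron from any class. Its class values, also counted in the 109 ratios and among the shares, therefore equal the main ones by construction. Other alternatives likewise left some classes with the same neurons. These were Nefh+ PEP, PEP2 and NP2 with the stricter cell filter, and all classes but NP1 and NF without a mitochondrial limit. With shared barcodes left out they were Nefh+ PEP, PEP2, Trpm8+ and NF. With neurons of more than 1 gate left out they were PEP1, Nefh+ PEP and NF. The counts and ranges above include such values. Genes with at least 500 UMIs, added after seeing the data, were past 0.2 in 17.2% (higher) and 17.3% (lower) of cases over all neurons. No paired analysis was possible because there is 1 library per condition, for which reason no replicate could be left out either. The widest intervals are those of classes with few UMIs.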
